A study of Mus musculus with 24 samples.

Results

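The comparison rests on 6 of the 24 arrays of the series: the lungs of 3 OuJ mice after 24 h of ozone, set against those of 3 OuJ mice after 6 h. Arrays were assigned to these groups by their titles. OuJ is the inbred strain C3H/HeOuJ, whose Toll-like receptor 4 (Tlr4) works; its close relative HeJ (C3H/HeJ) carries a dominant negative Tlr4. Each array holds RNA from the left lung lobe of 1 male mouse, and the 3 mice of a group are labelled as biological replicates. The other groups used here, of 3 mice each, are HeJ after 24 h and 6 h of ozone, OuJ after 48 h of ozone, and OuJ kept in air. The sources used here do not give the age of the mice or the ozone concentration. The sample codes fall into series: OuJ mice at 24 h and 48 h carry code series 10, and OuJ mice at 6 h and in air carry code series 3. What the series stands for is not stated, so it and the time of exposure cannot be told apart.

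Ozone is an oxidant gas that reacts in the fluid lining the airways and alveoli and injures ciliated and alveolar type 1 cells. The lung answers over hours to days with antioxidant and metal-binding genes, with inflammatory and acute phase genes, and with repair of its epithelium. Heat shock proteins are chaperones whose genes the transcription factor HSF1 switches on when unfolded protein accumulates in the cytosol. Acute phase genes are driven largely by interleukin 6 and interleukin 1 through STAT3 and NF-kB.

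Values are the authors' signal intensities, compared as log2(signal + 16) over 8008 genes. A difference is the mean at 24 h minus the mean at 6 h on that scale, with its standard error, and passing means an adjusted p under 0.05 from limma. The 3 arrays of a group limit the precision, and differences of dim genes are understated by the added 16. Array medians lay between 206.3 and 220.4 at 24 h and between 216 and 219.2 at 6 h. Correlations of log2 values across genes were 0.965 to 0.975 within the 24 h group, 0.971 to 0.976 within the 6 h group and 0.946 to 0.967 between the groups. The 5′ to 3′ signal ratio of Gapdh, a sign of RNA quality, was 0.948, 0.810 and 0.794 at 24 h and 0.895, 0.931 and 0.841 at 6 h. Lung markers were present in all 6 arrays: Sftpc, of alveolar type 2 cells, had 31194 to 40839 signal units, Scgb1a1, of club cells, 27758 to 34990, and Cdh5, of endothelium, 4543 to 6269. The macrophage marker Cd68 had 1030 to 1303 units, and Marco, a scavenger receptor of alveolar macrophages, 24.4 to 110.9.

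Between 6 h and 24 h, 175 of 8008 genes changed (2.19%), of which 91 rose (1.14%) and 84 fell (1.05%). At an unadjusted p under 0.05 there were 1171 genes (14.6%). Among the genes that rose, the median difference was 0.77 and 30 rose by more than 1 on the log2 scale; among those that fell the median was -0.70 and 15 fell by more than 1. The median of all genes was -0.02. In 174 of the 175 genes the 3 arrays at 24 h all lay beyond the 3 at 6 h, the exception being Lmcd1. The same separation held in 20% of all genes. The count varied with the arrays used. Without replicate 3 at 24 h 56 genes passed. Without replicate 1, 2 or 3 at 6 h 60, 97 and 81 passed. Fitted on the 6 arrays alone, without the spread of the other groups, 20 genes passed.

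**Figure D1:**
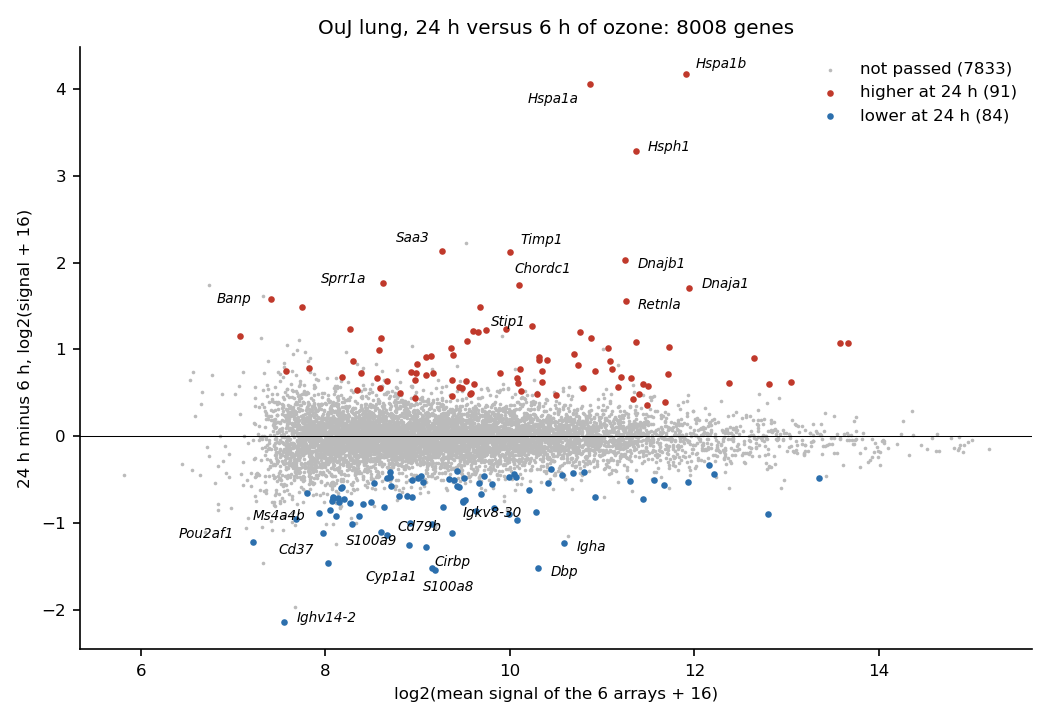
Difference between 24 h and 6 h of ozone (vertical axis, log2(signal + 16), 24 h minus 6 h) against the level (horizontal axis, log2 of the mean signal of the 6 arrays plus 16) for 8008 genes in OuJ lung. Red points are the 91 genes that rose, blue points the 84 that fell and grey points the 7833 that did not pass; Hspa1b, Hspa1a and Hsph1 lie above the rest, from 3.28 to 4.17.

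Chaperone genes gave the largest rises. Of 24 heat shock genes measured, 16 rose and 0 fell, and the median difference was 1.05 against -0.02 for all genes. Of all genes 1.14% rose. Hspa1b, one of the pair of genes for the stress-inducible Hsp70, had 3618, 4218 and 14051 signal units at 24 h, against 179, 452 and 395 units at 6 h. Its difference was 4.17 ± 0.62 (adjusted p = 0.000636). Hspa1a, the other gene of the pair, had 1357, 1358 and 7988 units at 24 h, against 114, 147 and 141 units at 6 h, a difference of 4.05 ± 0.63 (adjusted p = 0.000636). The pair are near-identical copies, so their probes may share signal and the values cannot be assigned to one of them. Hsph1, the Hsp110 that helps Hsp70 exchange its nucleotide, had 2003, 2225 and 10396 units at 24 h, against 303, 371 and 396 units at 6 h (3.28 ± 0.39, adjusted p = 8.21e-05). In all of these genes replicate 3 at 24 h stood far above the other mice, yet replicates 1 and 2 at 24 h also lay above every 6 h mouse.

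Of the partners of Hsp70 on the list, several rose. Dnajb1, a J-domain protein that delivers substrates to Hsp70, had 2072, 2434 and 7519 units at 24 h and 737, 871 and 832 units at 6 h (2.03 ± 0.33, adjusted p = 0.00091). Dnaja1, another J-domain protein, had 3560.1, 4144 and 10878 units at 24 h, against 1541, 1562 and 1898 units at 6 h (1.70 ± 0.28). Others did not pass: the J-domain protein Dnaja2 differed by 0.03, Hspa4, a relative of Hsph1, by 0.06 and the cochaperones Hspbp1 and St13 by 0.25 and 0.81 (adjusted p = 0.0807 for St13). Bag3, a cochaperone that links Hsp70 to autophagy, rose by 1.27 with an adjusted p of 0.0245. The constitutive Hspa8 was already abundant at 6 h, at 8094, 9442 and 7308 units, and had 15876, 14646 and 22443 units at 24 h (1.07 ± 0.15, adjusted p = 0.000469). Its 4 probe sets differed by 0.84 to 1.23, all in the same direction.

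Several genes that serve Hsp90 rose as well. Stip1, the adaptor that joins Hsp70 to Hsp90, had 784, 840.1 and 2048 units at 24 h and 396, 373 and 384 units at 6 h (1.49 ± 0.23, adjusted p = 0.000741). Chordc1, a cochaperone of Hsp90, had 1039, 1145 and 2910.4 units at 24 h, against 305, 616 and 459 units at 6 h (1.74 ± 0.27). Ahsa1, which stimulates the ATPase of Hsp90, rose by 1.02, the immunophilin Fkbp4 by 1.09, Cacybp by 1.23 and the inducible Hsp90 gene Hsp90aa1 itself by 0.91. The remaining members that passed were Hspb1, a small heat shock protein, with a rise of 1.07, the mitochondrial chaperonin Hspd1 with 1.03, and Hspa4l, a relative of Hsph1, with 1.02. The 8 members that did not pass ran from -0.17 for Cryab to 1.00 for Hspe1, the partner of Hspd1 (adjusted p = 0.0643).

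The size of the heat shock difference depended on 1 mouse. The mean log2 level of the 24 genes was 10.64, 10.69 and 11.89 at 24 h, against 9.69, 9.83 and 9.81 at 6 h. Replicate 3 at 24 h had the highest of the 3 values at that time for 23 of the 24 genes. Without it the median difference was 0.66 and 9 genes rose; without replicate 1, 2 or 3 at 6 h 10, 11 and 11 rose, and without replicate 1 or 2 at 24 h 18 and 17 did. In air the mean log2 level was 9.69, 9.70 and 10.08, and at 48 h 11.41, 11.26 and 11.63, so the 48 h mice lay between replicate 3 and the other 24 h mice. At 6 h 0 of the 24 genes passed against air in limma (1 at an unadjusted p under 0.05, as did 10.5% of all genes), with a median difference of -0.02, whereas at 24 h 18 passed as higher than air (3.16% of all genes), with a median of 1.03. The comparison of 6 h with air shares the 6 h arrays, and that of 24 h with air the 24 h arrays, with the one described here.

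Promoter sequences are shown for 3 of these genes because the heat shock element, the site bound by HSF1, has a simple letter pattern of GAA blocks in alternating orientation. They are RefSeq windows of mouse GRCm38.p6, read 5′ to 3′ on the gene's strand. Hspa1b lies on the minus strand at chr17:34959239-34959488 and Hsph1 on the minus strand at chr5:149636337-149636586, each shown as the 250 bases before the start. Capitals mark matches to GAANNTTC or TTCNNGAA, the same pair of blocks in its alternative arrangements. Hspd1 is given as a stretch of 30 bases on the minus strand at chr1:55088056-55088085, with capitals for overlapping matches to the 3-block pattern, which is GAANNTTC followed after NN by a further GAA block, on either strand.
Hspa1b: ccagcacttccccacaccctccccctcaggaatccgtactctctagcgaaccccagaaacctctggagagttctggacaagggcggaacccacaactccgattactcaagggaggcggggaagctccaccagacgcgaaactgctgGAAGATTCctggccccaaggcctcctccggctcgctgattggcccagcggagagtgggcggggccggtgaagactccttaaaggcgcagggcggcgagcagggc
Hsph1: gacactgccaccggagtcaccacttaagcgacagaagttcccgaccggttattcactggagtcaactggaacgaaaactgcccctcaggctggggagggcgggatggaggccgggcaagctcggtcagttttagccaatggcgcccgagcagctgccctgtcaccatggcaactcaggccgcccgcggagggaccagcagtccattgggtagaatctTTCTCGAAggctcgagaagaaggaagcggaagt
Hspd1: cgcggggccTTCCGGAAGGTTCTAGAAcgg
On either strand of the 250 bases before the start, GAANNTTC was present in 6.69% of 32851 RefSeq windows and in 6 of the 14 heat shock genes that rose and had a window: Hspa1a, Hspa1b, Dnaja1, Fkbp4, Hspb1 and Hspd1. A gene may have several windows. Counted by gene, GAANNTTC was in 6.32% of tested genes with a window, 16.7% of those that rose and 1 of 5 heat shock genes that did not pass. TTCNNGAA was present in 7.17% of windows, in 7.01% of tested genes with a window and in 2 of the 14, Hsph1 and Hspd1. The longer pattern was present in 0.466% of windows and, among the heat shock genes, in Hspd1 and in Hspe1, which face each other across the same stretch of chromosome 1; it contains both shorter patterns. The patterns were chosen after the differences were seen, and a match describes letters in a window.

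Of 24 measured chaperones of the endoplasmic reticulum and genes of the unfolded protein response, 5 rose, 0 fell and 19 did not pass. Of all genes 1.14% rose. The list median was 0.27, with 22 of 24 differences above 0. At an unadjusted p under 0.05 in limma there were 10 of 24, against 14.6% of all genes. Among those that did not pass were the chaperones Calr (0.05), Canx (0.17) and Hsp90b1 (0.12). Manf, a secreted protein of the stressed endoplasmic reticulum, had 2078, 2125 and 3031 units at 24 h, against 1139.9, 1123 and 847 units at 6 h (1.20 ± 0.18, adjusted p = 0.000636). Ddit3, which encodes the stress transcription factor CHOP, had 684, 555 and 958 units at 24 h and 340.5, 382 and 385 units at 6 h (0.92 ± 0.16, adjusted p = 0.00282). The groups did not overlap for either gene, as in 174 of the 175 genes that passed and in 20% of all genes. The main chaperone of the compartment, Hspa5 (BiP), rose by 0.63, the transcription factor Atf4 by 0.58 and Creld2 by 0.73. Members of the proteasome list did not follow: 0 of 31 passed in limma (1 at an unadjusted p under 0.05), and the differences ran from -0.28 to 0.24.

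**Figure D2:**
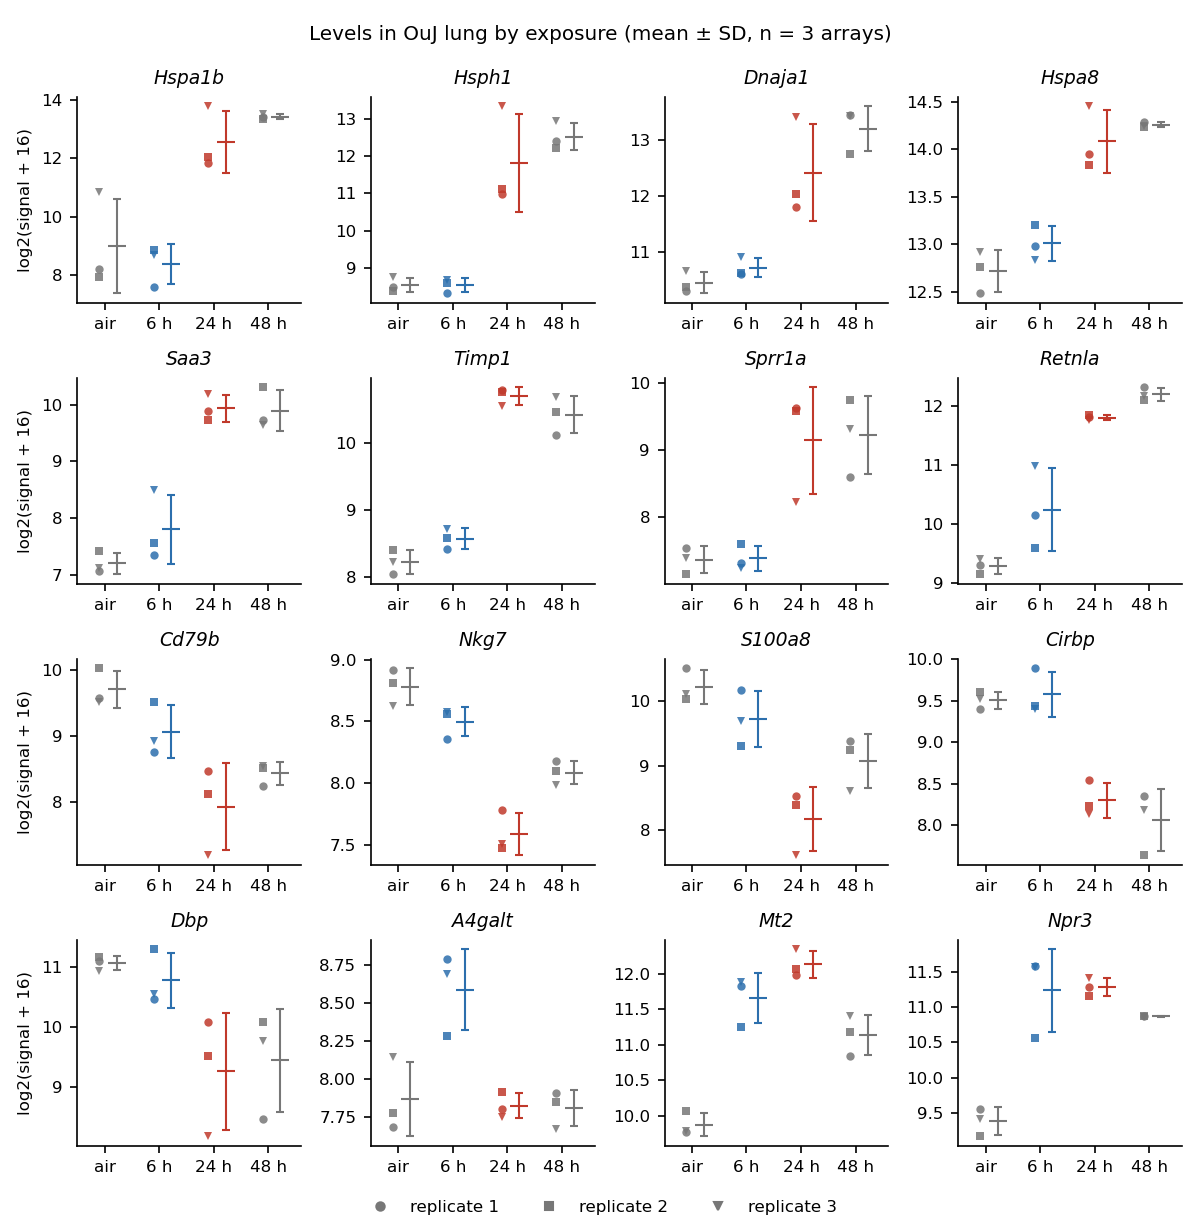
Signal on the log2(signal + 16) scale of 16 genes in OuJ lung in air and after 6, 24 and 48 h of ozone; each symbol is 1 mouse (circle, square and triangle for replicates 1, 2 and 3) and the bar beside it the mean ± SD of 3 arrays. Hsph1, Timp1 and Sprr1a stay near the air level at 6 h and are high at 24 h, Cirbp is low from 24 h, and Mt2 and Npr3 are already high at 6 h.

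Of 15 measured acute phase genes 5 rose, 0 fell and 10 did not pass, while 1.14% of all genes rose. Those 10 differed from -0.65 for the interleukin 1 receptor Il1r1 to 0.45 for the transcription factor Cebpb. The list median was 0.29, with 13 of 15 differences above 0. At an unadjusted p under 0.05 in limma there were 9 of 15, against 14.6% of all genes. Without single arrays 2 to 4 rose. Saa3, a serum amyloid A made in the inflamed lung, had 934, 832 and 1156 units at 24 h, against 146, 174 and 344 units at 6 h (2.14 ± 0.30, adjusted p = 0.000469). The lowest 24 h mouse lay above the highest 6 h mouse, replicate 3, which itself stood apart from the other 6 h mice. Socs3, the feedback inhibitor of interleukin 6 signalling, had 698, 1002 and 1920.1 units at 24 h and 424, 548 and 434 units at 6 h (1.22 ± 0.29, adjusted p = 0.0253); its 3 probe sets differed by 0.68 to 1.22. Lcn2, a protein that binds bacterial iron carriers, rose by 0.86, the inter-alpha-trypsin inhibitor Itih4 by 0.87 and the antiprotease Serpina3n by 0.88. Haptoglobin (Hp), which was already higher than air at 6 h, did not pass (0.23, adjusted p = 0.163).

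The palindrome TTCNNNGAA, the letters of a STAT site, was present in 2 of these 5 genes, Itih4 and Socs3. It was in 7.02% of all windows and 7.01% of tested genes with a window. The 250 bases before the start of Socs3 are shown with the match in capitals, on the minus strand at chr11:117969367-117969616.
Socs3: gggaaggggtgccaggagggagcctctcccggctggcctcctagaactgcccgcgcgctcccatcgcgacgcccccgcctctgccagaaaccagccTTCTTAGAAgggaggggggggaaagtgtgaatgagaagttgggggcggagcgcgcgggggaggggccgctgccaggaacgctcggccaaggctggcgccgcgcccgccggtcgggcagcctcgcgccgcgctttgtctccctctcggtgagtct

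Genes of epithelial repair and matrix formed the next group. Timp1, the inhibitor of matrix metalloproteinases, gave the smallest p of the comparison: it had 1751, 1714 and 1477 units at 24 h, against 325, 369 and 406 units at 6 h (2.12 ± 0.20, adjusted p = 2.33e-06). Sprr1a, a cornified envelope protein that squamous and injured epithelium makes, had 778, 751 and 285 units at 24 h and 144, 178 and 136 units at 6 h (1.76 ± 0.27, adjusted p = 0.000636), and here replicate 3 at 24 h was the lowest of its group. Krt8 and Krt18, the keratin pair of simple epithelium, rose by 0.71 and 0.69; the 3 probe sets of Krt8 differed by 0.17 to 0.83. Of 16 repair genes 3 rose, and of 16 matrix remodelling genes 2 rose, Timp1 and Thbs1 (0.95), the gene of thrombospondin 1, which can activate latent TGF-beta. In neither list did a gene fall. Of all genes 1.14% rose and 1.05% fell.

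Retnla, a secreted protein induced by type 2 cytokines, had 3577, 3659.8 and 3433 units at 24 h and 1119.8, 754 and 2007 units at 6 h (1.56 ± 0.37, adjusted p = 0.0242). The 24 h mice were close to each other, while the 6 h mice were spread, all of them above the air mice, which had 614, 549 and 662 units. Ccl17, a chemokine that draws type 2 helper cells, had 434, 352 and 386 units at 24 h, against 196, 184 and 243 units at 6 h (0.87 ± 0.18, adjusted p = 0.0112). Il33, the alarmin of alveolar type 2 cells, had 1772, 1699.7 and 1406 units at 24 h and 880.2, 1018 and 969 units at 6 h (0.75 ± 0.19, adjusted p = 0.042). Ccl17 and Il33 were the members that passed among 19 chemokines and cytokines, while 2.19% of all genes passed. The list median was 0.09, with 11 differences above 0 and 8 below. The largest, of the chemokine Cxcl5, did not pass (1.74 ± 0.53, adjusted p = 0.0862). Pigr, the receptor that carries IgA across epithelium, had 1389.7, 951 and 882 units at 24 h, against 442, 383 and 519.8 units at 6 h (1.21 ± 0.28).

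Of 20 immediate early genes 4 rose and 0 fell, against 1.14% and 1.05% of all genes. Maff, a small MAF transcription factor, had 483, 399 and 684 units at 24 h and 201, 218 and 252 units at 6 h (1.14 ± 0.26, adjusted p = 0.0212). Ier5 rose by 0.73, Klf4 by 0.77 and Fosl2 by 0.75, and Fosl2 at 6 h, with 128, 125 and 125 units, lay below its air mice, which had 199.8, 181 and 200.3. Egr1, a rapid growth-factor response gene, had a difference of -0.61 that did not pass (adjusted p = 0.284).

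Among the largest rises outside these lists were Banp, a nuclear matrix protein, with 176, 233 and 307 units at 24 h and 92.7, 68.0 and 46.5 units at 6 h (1.59 ± 0.29, adjusted p = 0.00375). The steroid 7-alpha-hydroxylase Cyp7b1, which metabolises oxysterols, had 278, 276 and 339.9 units at 24 h, against 60.1, 113 and 125 units at 6 h (1.49 ± 0.23, adjusted p = 0.000636). The transcription factor Sox7 had 2502, 2583 and 2637 units at 24 h and 994, 1238 and 1283 units at 6 h (1.13 ± 0.16, adjusted p = 0.000469). Sox17, of the same SOX subfamily, rose by 0.68. Sox17 was the only one of 25 genes of the endothelium list that passed, while 2.19% of all genes passed. In that list 7 genes had an unadjusted p under 0.05 in limma, against 14.6% of all genes. Differences lay below 0 in 16 of the 25, against 4268 of all 8008 genes, and the list median was -0.11. Foxa1, a transcription factor of airway and alveolar epithelium, rose by 0.78, and Foxj1, the regulator of motile cilia, by 0.91. Tppp3, another ciliated cell marker, fell instead, to 1980.3, 2012 and 2270.4 units at 24 h against 3874, 3394 and 3104 units at 6 h (-0.72 ± 0.16); the 3 further ciliated markers measured did not pass.

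**Figure D3:**
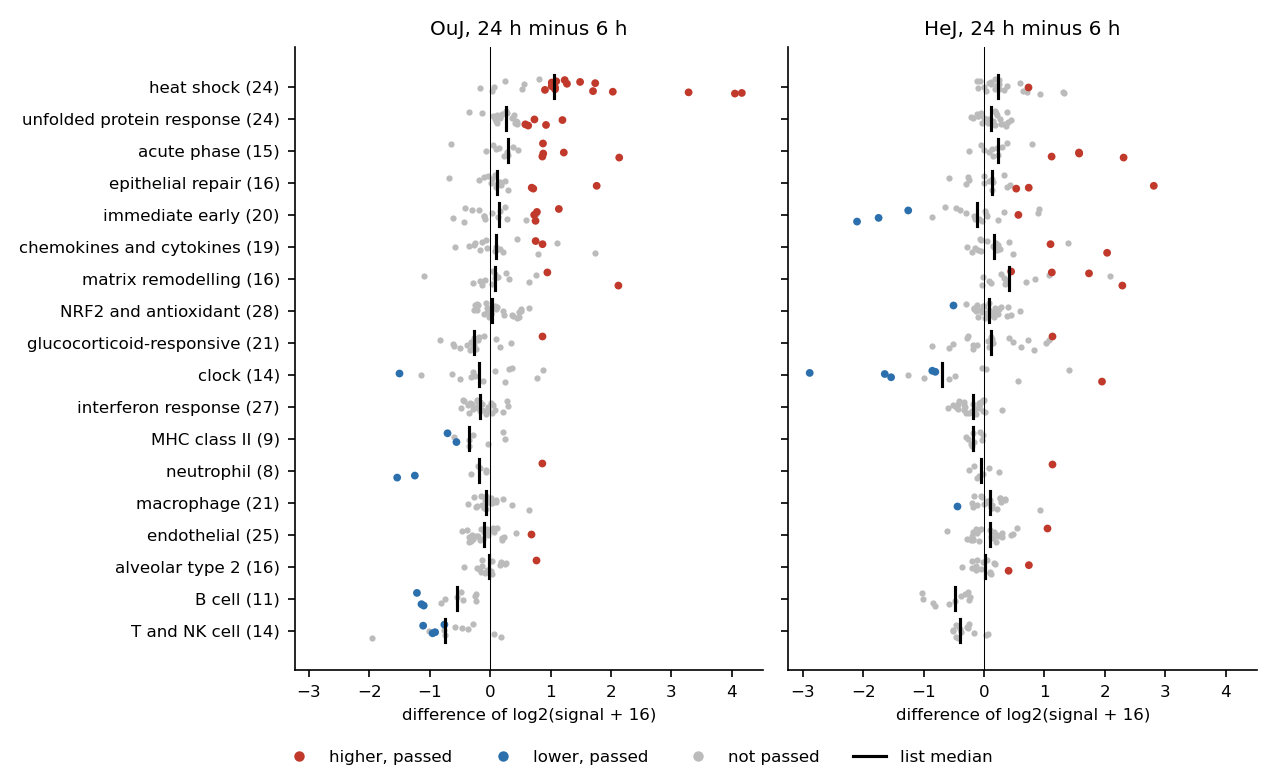
Differences between 24 h and 6 h (horizontal axis, log2(signal + 16), 24 h minus 6 h) of the measured members of 18 gene lists, in OuJ (left) and HeJ (right); the number of members is in parentheses, red and blue points passed, grey points did not, and the black bar is the list's median. In OuJ the heat shock list has its median at 1.05, and the B cell and the T and NK cell lists have theirs at -0.55 and -0.75.

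Most lymphocyte markers had lower means at 24 h, and some of them passed. Of 11 B cell markers 3 fell, with a median of -0.55 and all 11 differences below 0. Of 14 T and NK cell markers 4 fell, with a median of -0.75 and 12 differences below 0. In neither list did a marker rise. Of all genes 1.05% fell, and 4268 of 8008 had differences below 0. At an unadjusted p under 0.05 in limma there were 5 B cell and 10 T and NK cell markers, against 14.6% of all genes. Cd79b, the signalling chain of the B cell receptor, had 340.0, 264 and 131 units at 24 h, against 420.4, 721 and 469.7 units at 6 h (-1.14 ± 0.25, adjusted p = 0.0176). Its partner Cd79a had 293, 264 and 142 units at 24 h and 428, 718 and 396 units at 6 h (-1.10 ± 0.23, adjusted p = 0.0129). Pou2af1, the coactivator of immunoglobulin genes, fell by 1.21 with an adjusted p of 0.0492, just inside the threshold. In these markers replicate 3 at 24 h was the lowest mouse.

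Immunoglobulin genes were among the largest falls. The heavy chain variable gene Ighv14-2 had 94.8, 70.4 and 13.1 units at 24 h, against 195, 414 and 243 units at 6 h (-2.13 ± 0.35, adjusted p = 0.00134). Igha, the constant region of IgA, had 605, 869 and 1272 units at 24 h and 1630.4, 2887 and 1874 units at 6 h (-1.22 ± 0.30, adjusted p = 0.0309), and here replicate 3 was the highest of the 24 h mice. The light chain gene Igkv8-30 fell by 1.12 (adjusted p = 0.0213). Variable genes are a family of similar sequences, so their probe sets may read related members. Cd37, a tetraspanin of B cells, fell by 1.45 on the probe set used, but its second probe set differed by -0.34.

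In T and NK cells, Lat, the adaptor of the T cell receptor, had 132, 137 and 102 units at 24 h, against 280.3, 264 and 218 units at 6 h (-0.95 ± 0.20, adjusted p = 0.014). Nkg7, a protein of cytotoxic granules, had 204, 162 and 165 units at 24 h and 313, 361 and 366 units at 6 h (-0.91 ± 0.22, adjusted p = 0.029). The interleukin 7 receptor Il7r fell by 0.76 and Ms4a4b by 1.11 (adjusted p = 0.0497). Of the MHC class II list, 2 of 9 fell, H2-Oa by 0.71 and H2-Eb1 by 0.56, with a list median of -0.34. Of all genes 1.05% fell. Summed over the measured markers, B cell signal was 2486 to 3364 units at 24 h, against 3848 to 5966 units at 6 h, and T and NK cell signal was 3166 to 3920 units at 24 h, against 4692 to 6269 units at 6 h. In air the sums were 5551 to 7191 and 5982 to 7001 units. No measured marker of these lists was at 0 in the 6 arrays, the lowest values being 32.7 for B cells and 33.5 for T and NK cells. In whole lung, fewer cells of a type and less RNA per cell cannot be told apart. The calls were fragile: without replicate 2 at 6 h or replicate 3 at 24 h 0 markers of either list passed in limma, with 4 or 5 B cell and 8 or 7 T and NK cell markers at an unadjusted p under 0.05. Without replicate 1 at 6 h 0 of the T and NK cell markers passed (8 unadjusted). The list medians stayed between -0.71 and -0.44 for B cells and between -0.84 and -0.65 for T and NK cells over the arrays left out.

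Of 8 neutrophil markers 7 had differences below 0. In limma 2 fell and 1 rose, while 1.05% of all genes fell and 1.14% rose. S100a8 and S100a9, the subunits of calprotectin, fell: S100a8 had 352, 319 and 180.2 units at 24 h, against 1129, 615 and 806 units at 6 h (-1.54 ± 0.32, adjusted p = 0.0112). S100a9 had 253, 234 and 292 units at 24 h and 947, 454 and 597 units at 6 h (-1.25 ± 0.30, adjusted p = 0.0245). Lcn2, on the same list but also made by epithelium, rose, and the other 5 of 8 markers did not pass, from -0.33 to -0.07. The summed neutrophil signal was 4410 to 5802 units at 24 h and 4538 to 5864 units at 6 h. Of 21 macrophage markers 0 passed in limma (0 at an unadjusted p under 0.05), with a median of -0.07 and sums of 76828 to 90902 units at 24 h and 77383 to 86589 units at 6 h.

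Several further falls were sharp. Cirbp, the cold-inducible RNA-binding protein, had 355, 283 and 265 units at 24 h, against 936, 678 and 659.6 units at 6 h (-1.28 ± 0.19, adjusted p = 0.000636). Srsf5, a splicing factor, had 5565, 4962 and 4421 units at 24 h and 10156, 8258 and 9314 units at 6 h (-0.89 ± 0.13, adjusted p = 0.000469). The zinc finger gene Zbtb22 had 429.9, 386 and 284 units at 24 h and 791, 695 and 743 units at 6 h (-1.01 ± 0.14, adjusted p = 0.000469). The times did not overlap in these genes, as in 174 of the 175 genes that passed and in 20% of all genes.

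Dbp, a clock-controlled transcription factor whose level follows the time of day, had 1073, 719 and 274 units at 24 h and 1410.5, 2514 and 1492 units at 6 h (-1.52 ± 0.40, adjusted p = 0.046). It was the only one of 14 clock genes that passed, and 7 of the 14 had an unadjusted p under 0.05 in limma, against 14.6% of all genes. Nr1d1 differed by -1.14 (adjusted p = 0.19), and the list median was -0.19. In HeJ 5 of the 14 fell and 1 rose between these times, with a median of -0.69, while 1.7% of all genes passed. The sources used here do not give the time of day at which lungs were taken, and its part in this result was not tested. Cyp1a1, the cytochrome P450 that the aryl hydrocarbon receptor induces, had 378, 228 and 194 units at 24 h, against 946, 395 and 1190.4 units at 6 h (-1.52 ± 0.36, adjusted p = 0.0252). Sesn1, a stress-response gene that p53 induces, was the only one of 17 p53 targets that fell (-0.89, adjusted p = 0.024). Of all genes 1.05% fell. Pfkfb3, a regulator of glycolysis, fell by 0.86 (adjusted p = 0.00193).

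Air-exposed OuJ mice give each step a point of comparison. For a gene that passed, the position of the air mean was measured along the step, with 0 at the 6 h mean and 1 at the 24 h mean, as a description without a test. In 77 of the 175 genes (44.0%), 43 that rose and 34 that fell, air lay within 0.25 of the 6 h mean, so the 6 h level was near that of air. Examples are Timp1, with 248, 323 and 284 units in air, and Hsph1, with 345, 316 and 417 units in air. In 41 genes (23.4%), 18 that rose and 23 that fell, the 6 h mean lay between air and 24 h, as for Saa3 with 119, 156 and 123 units in air, Itih4 with 715, 681 and 635, Hspa8 with 5722, 6936 and 7750.5 and Dedd2, a death effector domain protein, with 117, 138 and 119.

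In 52 genes (29.7%) air lay between the 6 h and 24 h means. In limma 0 of the 52 passed at 6 h against air (19 at an unadjusted p under 0.05), so their departure from air at 6 h is a difference of means only. Sox7 had 2230.2, 1631 and 1554 units in air, Ier5 1027, 875 and 806 and Foxa1 1056, 907 and 854, all between their lower 6 h and higher 24 h means; Ier5 passed against air neither at 24 h nor at 6 h. Pfkfb3, with 713, 755 and 853 units in air, lay between a higher 6 h and a lower 24 h mean.

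Only 5 genes (2.86%) had an air mean near that of 24 h, and none had a 24 h mean between 6 h and air. In limma 0 of the 5 passed at 6 h against air (5 at an unadjusted p under 0.05, with adjusted p from 0.0517 to 0.0692), and the 6 h arrays that placed them here also chose them. A4galt, a glycosyltransferase that makes the Gb3 glycolipid, had 207, 225 and 199 units at 24 h, against 427, 296 and 398 units at 6 h (-0.77 ± 0.18, adjusted p = 0.0218), and 189, 203 and 267 in air. Nedd4l, the ubiquitin ligase that limits the epithelial sodium channel, had 1036, 1152 and 1068 units at 24 h and 1929, 1191 and 1729 units at 6 h (-0.54 ± 0.14, adjusted p = 0.042), and 1146, 1066 and 972 in air. Lmcd1, a LIM domain protein, had 774, 564 and 702 units at 24 h and 1944, 707 and 1692 units at 6 h (-0.96 ± 0.25, adjusted p = 0.0439). In all 3 genes replicate 2 at 6 h was the lowest 6 h mouse. The remaining 2, Coq4, needed to make coenzyme Q, and Hnrnpab, an RNA-binding protein, were lower at 6 h: Coq4 had 192, 178 and 141 units at 24 h, against 63.3, 76.4 and 62.6 units at 6 h, and 172, 146 and 304 in air. The 5 probe sets of Hnrnpab differed by 0.03 to 0.67.

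Without replicate 2 at 6 h, 11 genes had an air mean near that of 24 h, against 5 with all arrays. They included Lmcd1 (-1.41, adjusted p = 0.000642), Nedd4l (-0.74) and A4galt (-0.92), and also Scnn1g, a subunit of the epithelial sodium channel (-0.46, adjusted p = 0.0364), and Dag1, the dystroglycan gene (-0.52); these last were named after their values were seen. Leaving out any other array of the 2 groups gave between 0 and 2. The other classes also varied with the arrays used, from 27 to 94 genes for air near 6 h, 12 to 54 for air between and 8 to 40 for 6 h between.

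**Figure D4:**
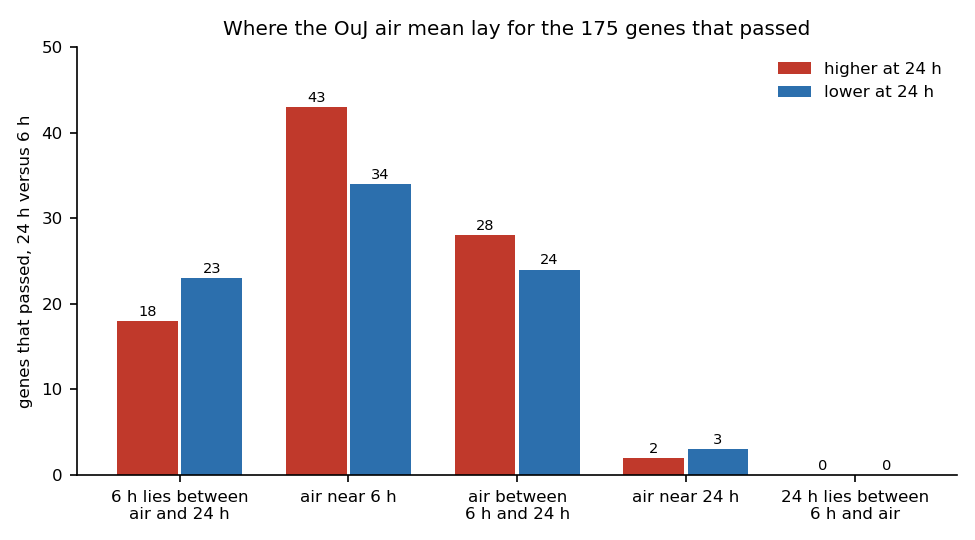
Number of genes that passed between 24 h and 6 h (vertical axis) by where the mean of the OuJ air mice lay relative to the 6 h and 24 h means; red bars rose and blue bars fell. Most genes had air near 6 h (43 and 34) or between the 2 times (28 and 24), and 2 and 3 had air near 24 h.

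Few genes passed at 6 h against air. There, 11 of 8008 genes passed at 6 h (0.137%), 7 of them higher (0.0874%), and the 6 h arrays are shared with the comparison here. Of these 7, 0 passed as lower at 24 h in limma (Dst, a cytoskeletal linker, alone had an unadjusted p under 0.05 in that direction, with -0.40 and an adjusted p of 0.118). Npr3, the clearance receptor for natriuretic peptides, had 2464, 2271 and 2718 units at 24 h, against 3046, 1495 and 3013 units at 6 h (0.05 ± 0.22, adjusted p = 0.946), and 740.1, 562 and 668 in air. Mt2, a metallothionein that binds zinc and other metals, had 4037, 4255 and 5198 units at 24 h and 3629.7, 2419 and 3778 units at 6 h (0.47 ± 0.21, adjusted p = 0.3), and 864, 1054 and 868 in air. Mt1, its neighbour and partner, differed by 0.03 ± 0.19. Gclc, the catalytic subunit that starts glutathione synthesis, had 1864, 1777 and 3398 units at 24 h and 1677, 1718 and 1844 units at 6 h (0.36 ± 0.22, adjusted p = 0.468), and 567, 709.6 and 717 in air. Errfi1, a feedback inhibitor of the EGF receptor, differed by -0.29 (adjusted p = 0.552). A p that misses the threshold does not show that the levels were equal; for Npr3 the standard error of 0.22 leaves room for changes of either sign.

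Rgs2, a regulator of G protein signalling, was the exception among the genes that passed at 6 h against air. It was lower than air at 6 h and lower again at 24 h, with 722, 769 and 642 units at 24 h, against 917, 1195 and 1032 units at 6 h (-0.54 ± 0.14, adjusted p = 0.046), and 2184, 2135 and 1659 in air. Of the 28 NRF2 and antioxidant genes 0 passed in limma between 6 h and 24 h (8 at an unadjusted p under 0.05), the median was 0.02, and Gpx2 came nearest (0.51, adjusted p = 0.0505). Metallothioneins and metal transporters gave 0 of 12 (3 unadjusted). Of all genes 14.6% had an unadjusted p under 0.05.

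Of 21 measured genes that glucocorticoids raise, 1 rose, Lcn2, 0 fell, and the median was -0.27. Of all genes 1.14% rose. Fkbp5, a cochaperone that glucocorticoids induce, had 1852, 1424 and 853 units at 24 h, against 2942, 687 and 2254 units at 6 h, and 439.7, 456 and 476 in air. Replicate 2 at 6 h lay far below its group mates, and the difference did not pass (-0.34, adjusted p = 0.761). Pdk4, which restrains pyruvate dehydrogenase in fasting, had 164, 186 and 203 units at 24 h and 419.6, 206 and 439.6 units at 6 h (-0.82 ± 0.35, adjusted p = 0.258), and again replicate 2 was the lowest 6 h mouse.

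Several other lists held no member that passed in limma. At an unadjusted p under 0.05 there were 2 of 14 mitosis genes, 4 of 27 interferon-responsive genes, 3 of 18 genes of Tlr4 and NF-kB signalling, 2 of 24 of mitochondrial respiration, 4 of 16 of cholesterol synthesis and 5 of 28 of fibroblasts and matrix. Among all genes the share at that level was 14.6%. The medians of these lists lay between -0.16 and 0.13. The lists are not complete. Among the genes outside them that passed were Ifitm1 (0.57), Trim21 (-0.45) and Tril. Tril fell by 0.78 on the probe set used, while its other probe set differed by -0.30. Tlr4 itself had 238, 289.7 and 244 units at 24 h and 220.5, 161 and 217 units at 6 h. The difference did not pass (0.35 ± 0.17, adjusted p = 0.326), and the groups did not overlap, as in 20% of all genes. Pcna, the sliding clamp of replication, was the only one of 15 replication genes that rose (0.43, adjusted p = 0.0276), and Gar1, of ribosome assembly, the only one of 17 in its list (0.53). Of the 38 lists, 16 had no member that passed.

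Few calls followed the step. None of the 175 genes passed between 48 h and 24 h in limma (29 had an unadjusted p under 0.05, as did 7.98% of all genes, and 12 of all genes passed, 0.15%), and that comparison shares the 24 h arrays. The median difference of 48 h minus 24 h was 0.09 for genes that had risen and 0.06 for genes that had fallen. Hspa1b had 10773, 10389 and 11661 units at 48 h, Timp1 1099, 1385 and 1621 and Cirbp 311, 183 and 273. Coq4, with 114, 79.0 and 74.3 units at 48 h, lay below its 24 h mice again.

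HeJ mice went through the same interval in arrays that the OuJ comparison does not use. In HeJ 136 of 8008 genes changed between 6 h and 24 h (1.7%), 76 rising (0.949%) and 60 falling (0.749%). The strains shared 29 genes that passed in the same direction, 16.6% of those in OuJ and 21.3% of those in HeJ, and 0 that passed in opposite directions. Of these, 18 rose and 11 fell. They included Timp1, at 2.29 ± 0.20 in HeJ, Saa3 at 2.31 ± 0.30, Sprr1a at 2.81 ± 0.27, Retnla at 2.18 ± 0.37, Krt8, Krt18, Socs3, Lcn2, Ccl17, Thbs1, Ier5, Sox7 and Hspa8 among the rises, and Dbp at -2.89 ± 0.40, Pfkfb3 and Tppp3 among the falls. Of the 175 genes that passed in OuJ, 157 had the same sign in HeJ, against 59.8% of all genes. Their median difference was smaller in HeJ: 0.34 for the genes that rose in OuJ and -0.31 for those that fell. The 175 genes were chosen on their OuJ differences, so the HeJ medians are given as a description.

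**Figure D5:**
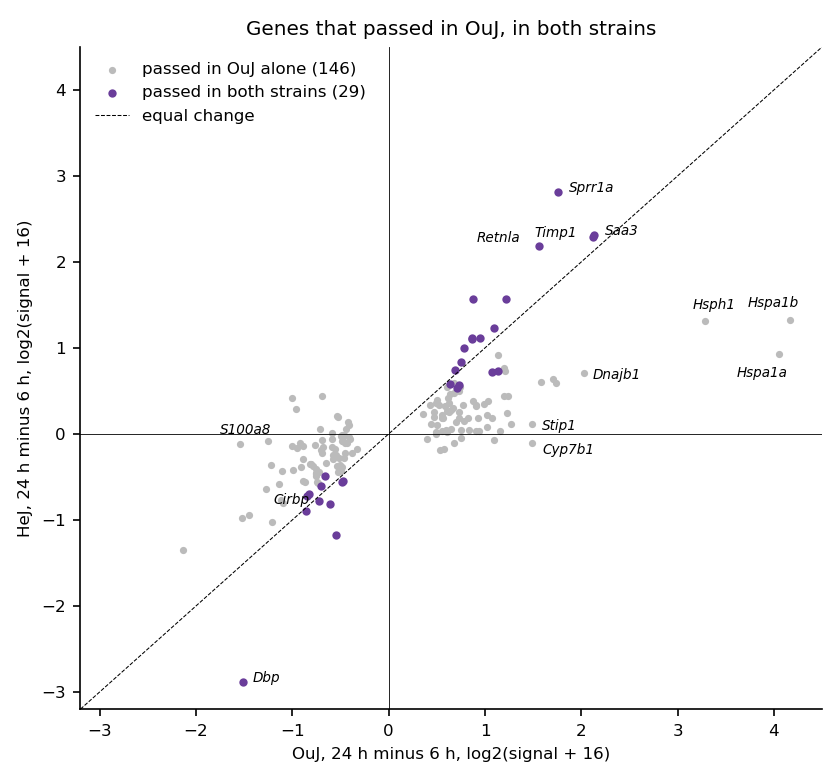
Difference between 24 h and 6 h in OuJ (horizontal axis) and in HeJ (vertical axis), both as log2(signal + 16), for the 175 genes that passed in OuJ; purple points passed in both strains (29), grey points in OuJ alone (146), and the dashed line marks equal change. Sprr1a, Timp1, Saa3 and Retnla lie on or above the line, and the Hsp70 genes and Hsph1 lie below it.

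The heat shock genes had smaller differences in HeJ. Of 24, 1 rose in HeJ, Hspa8 (0.72 ± 0.15), and the median was 0.23, against 16 and 1.05 in OuJ. Without replicate 3 at 24 h the OuJ values were 9 and 0.66. Of all genes 0.949% rose in HeJ. Hsph1 had 2003, 2225 and 10396 units at 24 h and 303, 371 and 396 units at 6 h in OuJ; in HeJ it had 643, 1541 and 787 units at 24 h and 320.5, 339 and 434 units at 6 h (1.31 ± 0.39, adjusted p = 0.0955). The HeJ mice overlapped neither between times nor with the 24 h OuJ mice. Tested directly as OuJ minus HeJ, 22 of the 24 genes had a difference above 0, with a median of 0.85 against -0.01 for all genes. These values include replicate 3 of OuJ at 24 h. In limma 0 of the 24 passed (15 had an unadjusted p under 0.05), and the smallest adjusted p was 0.145, for Stip1 (1.37 ± 0.33).

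Across all genes, the strain difference of the 24 h to 6 h change gave 0 of 8008 that passed (0%) in limma, with 667 (8.33%) at an unadjusted p under 0.05, so no change above is called particular to OuJ. Other settings gave from 0 to 15. The genes with the smallest p in favour of OuJ were Cxcr4, the receptor that retains leukocytes, at 1.18 ± 0.22 (adjusted p = 0.0665), Gpr180, Cyp7b1 at 1.59 ± 0.32 (adjusted p = 0.0665), Nfib and Tmprss2. Cxcr4 had an OuJ difference of -0.09 and fell in HeJ (-1.27), while Cyp7b1 rose in OuJ (1.49) and had a HeJ difference of -0.11. On the other side were Ccnb2, a mitotic cyclin, at -1.78 ± 0.35 (adjusted p = 0.0665), Gadd45g at -1.88 ± 0.38, Ackr2, Eln and Add3. Ccnb2 had 72.6, 78.1 and 53.5 units at 24 h and 142, 125 and 116 units at 6 h in OuJ, and 149, 140.1 and 177 units at 24 h and 68.2, 69.4 and 69.8 units at 6 h in HeJ. Eln, the gene of elastin, rose in HeJ (1.57) and had an OuJ difference of 0.09. The probe sets of Nfib and of Ackr2 differed in sign in OuJ, from -0.34 to 0.36 and from -0.72 to 0.19. In HeJ the 24 h mice carry code series 13 and the 6 h mice series 3, so there too the series and the time cannot be told apart. The Gapdh 5′ to 3′ ratio was 0.944, 0.605 and 0.710 in HeJ mice at 24 h and 0.714, 0.586 and 0.621 in HeJ mice at 6 h, 5 of the 6 being below every OuJ mouse at these times, and its part in the strain comparison was not tested.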

How the data were processed

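Total RNA of left lung lobes was hybridized to Affymetrix Mouse 430A 2.0 arrays, 1 mouse each. The authors deposited a linear signal intensity for each of 22690 probe sets, from GCOS 1.4 per the submitters' processing notes; the sources used here do not give its settings. Each array's mean after trimming 2% from each tail was 500.1439 to 500.1662. From these, log2(intensity + 16) was computed. Probe sets with 1 gene symbol were kept if at least 3 of 24 arrays exceeded 218.3, the overall median (11843 probe sets), and the one with the highest mean stood for its gene (8008 genes; 2645 had several). Of 20380 probe sets with 1 symbol 20351 matched RefSeq; 691 had several symbols and 1555 none.

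One model with a mean for each of the 8 groups was fitted with limma 3.58.1 (R 4.3.3, with data.table version 1.17.8) to the 24 arrays, with an intensity trend. P-values are two-sided and Benjamini-Hochberg adjusted over all genes. An exact permutation of 3 against 3 arrays can give no p under 0.1. The model was also run on simulated data with independent noise and planted changes, and no outcome of that run is used here. Alternatives are given in the closing section. The comparison, the 38 gene lists (830 members, 583 measured genes) and the naming rule were chosen with earlier results of these data known. Named are the 12 largest rises and 12 largest falls whose groups do not overlap, up to 4 genes of each list (3 if none passed) and of each air position, 5 per direction of the strain difference, and Tlr4, Mt1, Mt2, Gclc, Npr3, Hspa1a, Hspa1b and Hsph1; further members are given to complete a list. Same-numbered mice of the 2 groups did not deviate together, so no pairing was used.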

Additional observations from a re-analysis of the deposited data

How the results depend on the processing

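The 175 genes that passed between 24 h and 6 h in OuJ became 20 when the model used only the groups compared. Fewer arrays then estimate the spread, and the cause of the drop was not tested. When single arrays were left out, 56 to 190 genes passed. Normalization, pseudocount, filter, choice of probe set, trend and array weights gave 127 to 194. In HeJ 136 became 44 with only the groups compared, 243 with array weights and 49 to 191 without single arrays. The strain difference, 0 by the model used, gave 3 with the mean of probe sets, 2 without the intensity trend, 15 with array weights and 0 to 15 without single arrays; the cause was not tested. The numbers of the mice are shared between groups, but deviations of same-numbered 24 h and 6 h mice correlated at 0.0717, 0.0123 and 0.0435 across genes, and a pairing is not stated; with the replicate block 210 genes passed in OuJ, 151 in HeJ and 4 for the strain difference. Of the 124 named genes 66 passed and 13 of these did so under all 17 alternatives for the OuJ comparison: Hspa1b, Hspa1a, Hsph1, Hspa8, Manf, Saa3, Itih4, Timp1, Krt8, Sox7, Cirbp, Zbtb22 and Srsf5. No named gene changed direction while called, and of 38 list medians those of the proteasome and alveolar type 2 lists, at -0.01 and -0.02, changed sign under quantile normalization or median centring. Detection calls were not used, so how far dim genes lie above background is not known here.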

Other observations

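Of the 175 genes that changed between 6 h and 24 h, 117 were on none of the gene lists. The genes below were picked from them after their values were seen and stand for no group. Pde4b, a phosphodiesterase that degrades cyclic AMP in leukocytes and other cells, had 3246, 3719.8 and 3705 units at 24 h, against 1326, 1592 and 2167 units at 6 h (1.09 ± 0.16, adjusted p = 0.000636), and rose in HeJ by 1.23. Smad7, the inhibitory SMAD of TGF-beta signalling, had 2268, 2004 and 2035 units at 24 h and 1324, 1432 and 1515 units at 6 h (0.56 ± 0.11, adjusted p = 0.00923). Pmepa1, which also restrains TGF-beta signalling, rose by 0.68, the transcription factor Klf10 by 0.61 and the transcription factor Snai1 by 0.67. The importin Kpna2 had 796, 935 and 905 units at 24 h and 597, 629.9 and 619.5 units at 6 h (0.50 ± 0.11), and the nuclear import receptors Kpna3 and Ipo7 rose by 0.63 and 0.63.

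Tra2a, a splicing activator, rose by 0.83 (adjusted p = 0.0143). Ptbp2, a splicing repressor, had 163, 223 and 188 units at 24 h and 303, 343 and 308 units at 6 h (-0.69 ± 0.17, adjusted p = 0.0267). The RNA-binding protein Rbmx fell by 0.57 on the probe set used, while its other probe set differed by -0.06. Ppbp, a chemokine of platelets, fell to 125, 186 and 285 units at 24 h, against 371, 447 and 369 units at 6 h (adjusted p = 0.0291), and its HeJ difference of 0.42 did not pass. Coro1a, an actin regulator of leukocytes, had 1034, 924 and 646 units at 24 h and 1536, 1872 and 1342 units at 6 h (-0.87 ± 0.19, adjusted p = 0.014), and 2290.2, 2335 and 2051 units in air.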
